A study of Mus musculus with 4 samples.

Results

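The fetal lymphoid axis around *Lin28b* was followed in *Ebf1*-/- fetal liver hematopoietic progenitor cells (FL HPCs) through all probes of 7 genes: *Lin28a*, *Lin28b*, *Hmga2*, *Igf2bp1*, *Igf2bp2*, *Igf2bp3* and *Arid3a*. Their probes were taken by gene name. They had 11 of the 39429 probes on the array, which carry 31896 gene names in all. *Lin28a* is printed on the array under its older symbol *Lin28* and was found through its accession, so that the printed names alone give 6 genes and 10 probes. The question was which genes of the fetal programme could still be detected after culture, and whether their signals differed between the viruses.

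The data are 4 single-dye Agilent arrays. The cells came from the livers of mid-gestation mouse embryos homozygous for a disrupted *Ebf1*, a transcription factor needed for B cell development, and were depleted of cells with lineage markers. They were infected with a retrovirus that carries GFP, either without an insert (EMPTY, 2 arrays) or with a *Mir195* segment (*Mir195*, 2 arrays). Both groups thus share the *Ebf1*-/- genotype, the infection and the culture, for which the general condition is a week on OP9, a stromal cell line, with SCF, IL-7 and Flt3-ligand at 10 ng/mL each. The labels place the cells at an early B cell stage around pro-B. A sort of the infected cells before RNA isolation is not stated, and the labels do not say whether the duplicates are separate cultures or embryos, so that p-values measure only the spread between these samples. Since no adult, uncultured or wild-type cells are among the arrays, a signal can be set only against background and against the other virus.

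LIN28A and LIN28B are RNA-binding proteins that hold back the maturation of let-7, a family of miRNAs that is low in the embryo and rises later. In fetal hematopoietic progenitors *Lin28b* is a known determinant of fetal-type lymphopoiesis, including that of B-1 cells. Transcripts freed from let-7 include *Hmga2*, which encodes a chromatin protein linked to self-renewal of fetal stem cells, the *Igf2bp* genes, which encode RNA-binding proteins that stabilize mRNAs, and *Arid3a*, a DNA-binding factor of early B lineage cells. let-7 also represses *Lin28a* and *Lin28b* themselves, which closes the loop. The arrays measured mRNAs and not the mature miRNAs.

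The mature miRNAs of the axis and of the virus are shown because their seeds, bases 2 to 8 in capitals, set which transcripts they can pair with. The sequences are from RefSeq (GRCm38.p6), 5′ to 3′. All 9 mature members of the let-7 family found there share the seed GAGGUAG, and 3 of them are given here:
mmu-let-7a-5p: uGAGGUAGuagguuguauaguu
mmu-let-7g-5p: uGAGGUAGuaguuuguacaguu
mmu-miR-98-5p: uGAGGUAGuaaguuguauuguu
The product of *Mir195* shares the seed AGCAGCA with the other members of its family shown here:
mmu-miR-195a-5p: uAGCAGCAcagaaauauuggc
mmu-miR-16-5p: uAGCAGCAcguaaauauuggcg
mmu-miR-15a-5p: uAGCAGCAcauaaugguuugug
The seeds of the let-7 and *Mir195* families are thus different. The letters CTACCTC, which pair with the let-7 seed, were searched on the printed strand of every probe. Of the 39429 probes, 150 (0.380%) hold them, among them 1 of the 11 probes of the axis, a probe of *Hmga2*. Its bases 34 to 60 of 60 are printed with these letters in capitals:
*Hmga2* A_52_P300730: aaaacacactaCTACCTCttaagtccc
The letters TGCTGCT, which pair with the *Mir195* seed, stand in 317 probes (0.804%) and in 0 probes of the axis. A match is a description of the probe only, and the rest of each transcript was not searched.

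Of the 7 genes, 6 had at least 1 probe well above background, by the flag of the scanner software, on all 4 arrays: *Lin28a*, *Lin28b*, *Hmga2*, *Igf2bp2*, *Igf2bp3* and *Arid3a*. *Igf2bp1* was well above background on no array. By probe, 9 of 11 were well above background on all 4 arrays. These 9 entered the comparison of the viruses, and the 2 that did not were the *Igf2bp1* probe and 1 of the 2 probes of *Lin28b*. Values are given below as log2 signal minus that of the array's 75th percentile, so that 0 is the 75th percentile of all probes. Levels of different probes are not compared, since probes differ in how they bind.

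**Figure D1:**
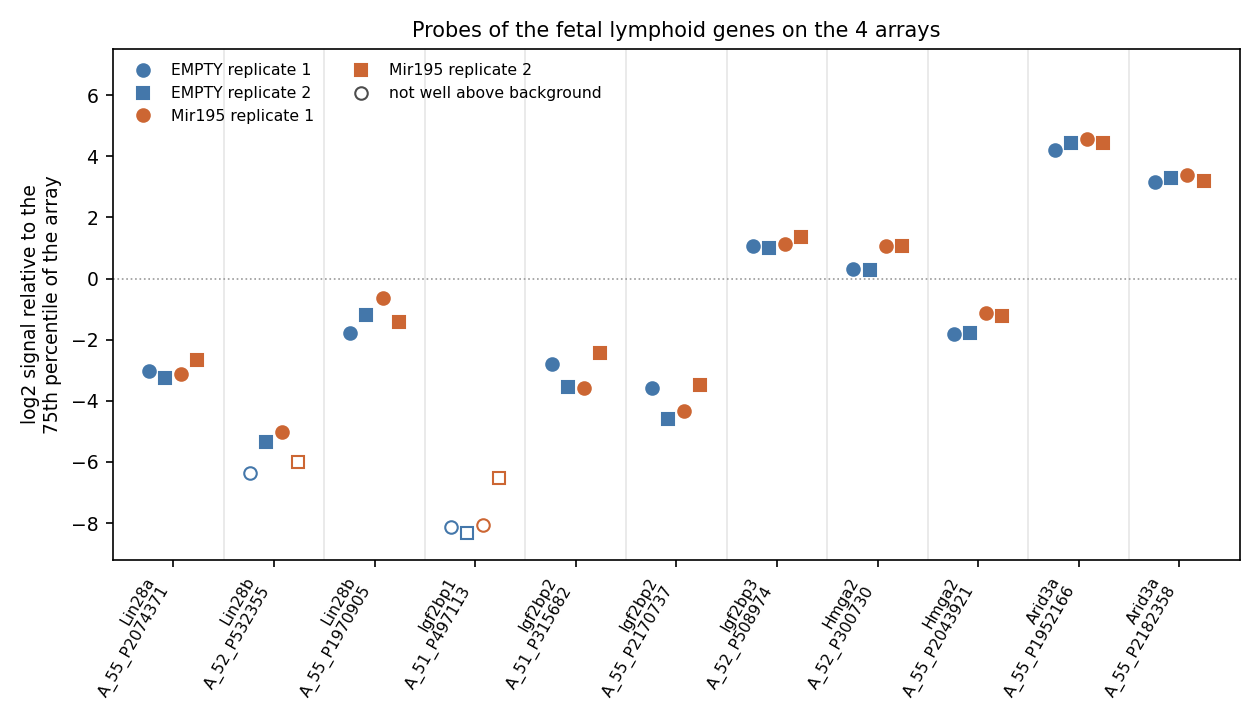
Each column is 1 probe of the axis and each point 1 array, with its log2 signal, taken relative to the array's 75th percentile, on the vertical axis. EMPTY arrays are blue, *Mir195* arrays orange, and open points are not well above background. The *Igf2bp1* probe is open on all 4 arrays, and the *Hmga2* probes separate the viruses, with *Mir195* higher. Heights of different probes are not comparable.

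With the adjusted p of 0.05 as threshold, limma called 0 of the 9 tested probes of the axis, where it called 0 (0%) of all 23722 tested probes. The unadjusted p was under 0.05 for 2 probes of the axis, both of *Hmga2*, and for 1978 (8.33%) of all tested probes. The *Mir195* arrays both exceeded the EMPTY arrays for 3 of the 9 probes, against 23.4% of all tested probes, and lay below them for 0, against 14.4%. The mean was higher with *Mir195* for all 9 tested probes of the axis, against 53.1% of all tested probes, although 1 *Arid3a* probe turned sign with scaling by the median. With 1 array left out, that *Arid3a* probe and both *Igf2bp2* probes turned sign as well, so that the shared direction is not stable. The median log2 fold change of the 9 probes was 0.23, beside 0.01 for all tested probes. Several of these probes share a gene, and 2 of the 11 did not enter, so that this is a description and not a test of the list. An exact two-sided permutation test of 2 arrays against 2 cannot give a p under 0.333.

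*Hmga2* had the largest log2 fold changes among the tested probes of the axis. It lies on chr10:120361268-120476469 of GRCm38.p6. Its probe A_52_P300730, the one printed above, was at 0.30 and 0.29 with EMPTY and at 1.07 and 1.07 with *Mir195*. The difference within each virus was under 0.01, and the groups did not overlap. The log2 fold change was 0.78 (standard error, SE, 0.11, 95% interval 0.48 to 1.07), which is 1.71-fold higher with *Mir195*, with an unadjusted p of 0.00126 and an adjusted p of 0.530 from limma with Benjamini-Hochberg adjustment. The other probe, A_55_P2043921, was at -1.81 and -1.79 with EMPTY and at -1.14 and -1.22 with *Mir195*. Here the log2 fold change was 0.62 (SE 0.12, 95% interval 0.32 to 0.92), a 1.54-fold difference, with an adjusted p of 0.530 from limma. Both probes gave the same direction, and neither passed the threshold. A positive difference as large or larger was seen for 2.54% of all tested probes for A_52_P300730 and for 4.34% for A_55_P2043921. Over the 14 alternatives that give an adjusted p from limma, the log2 fold changes were 0.68 to 0.79 and 0.52 to 0.66, and the lowest adjusted p of A_52_P300730 was 0.0643, without *Mir195* replicate 1.

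*Lin28b*, the RNA-binding protein at the head of the axis, lies on chr10:45376617-45486314. Its probe A_55_P1970905 was at -1.79 and -1.18 with EMPTY and at -0.64 and -1.42 with *Mir195*. The arrays of each virus differed by 0.61 and 0.78, and the groups overlapped. The log2 fold change was 0.46 (SE 0.34, 95% interval -0.43 to 1.35), with an adjusted p of 0.833 from limma. With *Mir195* replicate 1 left out it was 0.07, and with *Mir195* replicate 2 left out 0.85. The other probe, A_52_P532355, was at -6.35, -5.34, -5.03 and -5.98 in the same order of arrays, and was well above background on EMPTY replicate 2 and *Mir195* replicate 1 alone. Both probes were thus higher on 1 array of each virus, EMPTY replicate 2 and *Mir195* replicate 1, than on the others.

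*Lin28a*, the paralog typical of early embryonic cells, lies on chr4:134003330-134019196 and had 1 probe. It was at -3.02 and -3.26 with EMPTY and at -3.11 and -2.68 with *Mir195*. The groups overlapped. The log2 fold change was 0.25 (SE 0.20, 95% interval -0.27 to 0.76), with an adjusted p of 0.845 from limma. With 1 array left out it ranged from 0.03, without *Mir195* replicate 2, to 0.46, without *Mir195* replicate 1. *Lin28a* was therefore above background in these cultures together with *Lin28b*, and for neither did the viruses differ by more than the wider difference between its duplicates.

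The 3 *Igf2bp* genes encode related proteins, and their probes gave 3 different pictures. The *Igf2bp1* probe (chr11:95957163-96005944) was at -8.13 and -8.31 with EMPTY and at -8.07 and -6.53 with *Mir195*, with processed signals of 3.25 to 9.98. Since no array measured it well above background, no fold is given. *Igf2bp3*, the family member best known from fetal-type lymphoid progenitors, lies on chr6:49085218-49215469. It was at 1.06 and 0.98 with EMPTY and at 1.15 and 1.35 with *Mir195*. The groups did not overlap, with *Mir195* higher by a log2 fold change of 0.23 (SE 0.13, 95% interval -0.12 to 0.58), with an adjusted p of 0.783 from limma. The value was 0.12 without *Mir195* replicate 2 and 0.13 with scaling by the median.

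*Igf2bp2*, on chr16:22059009-22163299, was the member with the widest spread between duplicates among the tested probes. Its probe A_51_P315682 was at -2.80 and -3.56 with EMPTY and at -3.59 and -2.44 with *Mir195*. The probe A_55_P2170737 was at -3.57 and -4.59 with EMPTY and at -4.35 and -3.47 with *Mir195*. Both probes were higher on EMPTY replicate 1 and *Mir195* replicate 2 than on the other pair, which is the opposite pattern to that of *Lin28b*. Over all tested probes, EMPTY replicate 2 and *Mir195* replicate 1 were the closest arrays, with a median absolute log2 difference of 0.10. It was 0.15 between the EMPTY arrays and 0.19 between the *Mir195* arrays. A likeness of these arrays across the viruses is thus not particular to *Lin28b* and *Igf2bp2*. The log2 fold changes were 0.16 (SE 0.46, 95% interval -1.04 to 1.37) and 0.18 (SE 0.45, 95% interval -1.01 to 1.36), with adjusted p of 0.964 and 0.958 from limma. They have no settled direction, since they lay below 0 without EMPTY replicate 2, to -0.22 and -0.33, and without *Mir195* replicate 2, to -0.41 and -0.26.

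**Figure D2:**
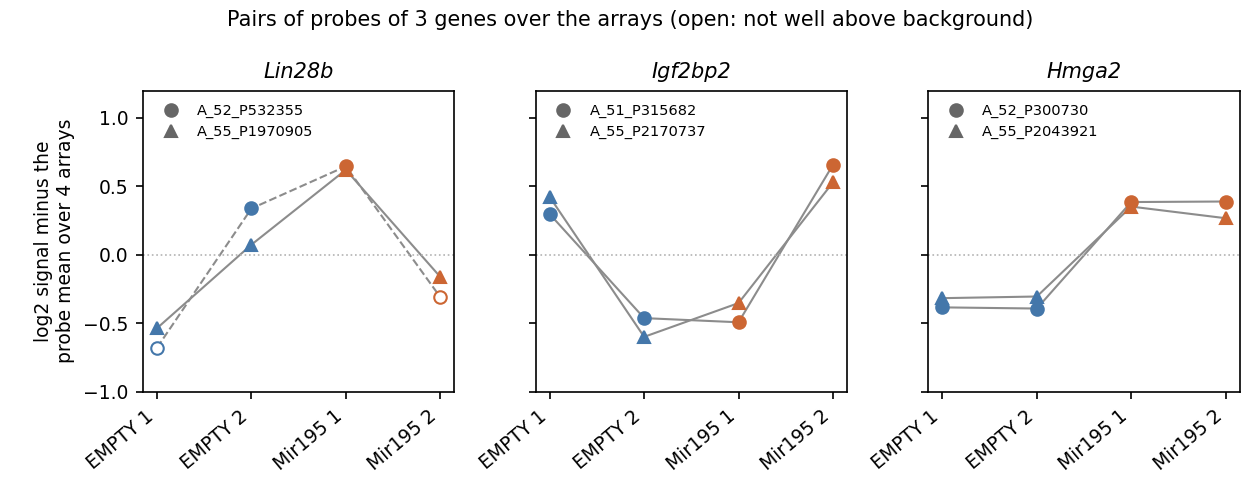
For 3 genes with 2 probes each, the vertical axis gives the log2 signal minus the mean of that probe over the 4 arrays, and the horizontal axis the arrays (EMPTY blue, *Mir195* orange, open points not well above background). Lines join the arrays of 1 probe and carry no order in time. The pair of *Hmga2* probes separates the viruses, while the *Lin28b* and *Igf2bp2* pairs follow each other across arrays within each virus.

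Cells of the OP9 line are the other source of RNA in such a culture, and their markers were measured beside these genes. Of 16 stromal genes, 12 were well above background on all 4 arrays, and *Dcn*, *Lum*, *Postn* and *Pdgfra*, genes of fibroblast matrix and growth factor signalling, were so on none. The summed signal of the 16, in multiples of the 75th percentile, reached 13.2 and 14.1 with EMPTY and 12.4 and 22.9 with *Mir195*, highest on *Mir195* replicate 2. The genes with the largest differences were *Cxcl12* (log2 fold change 0.40), *Fbn1* (0.39), *Sparc* (0.37) and *Fn1* (0.33), and the 12 tested genes had 0 calls. *Igf2bp2* was also high on *Mir195* replicate 2, and it was high on EMPTY replicate 1 too, where the stromal sum was 13.2. The part of stromal RNA in its signal was not tested. Without *Mir195* replicate 2 the log2 fold changes of the *Hmga2* probes were 0.77 and 0.66, beside 0.78 and 0.62 with all 4 arrays. The part of stromal RNA in the *Hmga2* signal was not tested either, since stromal genes were above background on every array. In such bulk RNA, fewer cells of a type and less RNA per cell cannot be told apart.

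*Arid3a*, on chr10:79927043-79955018, had 2 probes. The probe A_55_P1952166 was at 4.21 and 4.44 with EMPTY and at 4.57 and 4.42 with *Mir195*. The probe A_55_P2182358 was at 3.14 and 3.29 with EMPTY and at 3.40 and 3.21 with *Mir195*. The groups overlapped for both, with log2 fold changes of 0.17 (SE 0.14, 95% interval -0.20 to 0.55) and 0.09 (SE 0.14, 95% interval -0.28 to 0.45) and adjusted p of 0.857 and 0.931 from limma. With 1 array left out, A_55_P1952166 ranged from 0.06, without EMPTY replicate 1, to 0.29, without EMPTY replicate 2. The value of A_55_P2182358 changed sign to -0.01 with scaling by the median and also without *Mir195* replicate 1. Of the 6 paralogs and partners of *Arid3a*, 5 were tested with log2 fold changes of 0.01 to 0.19, and *Arid3c* was well above background on no array. *Btk*, a kinase of B cell receptor signalling that partners with ARID3A, was at 0.15 and *Sp100*, a nuclear body protein, at 0.19.

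**Figure D3:**
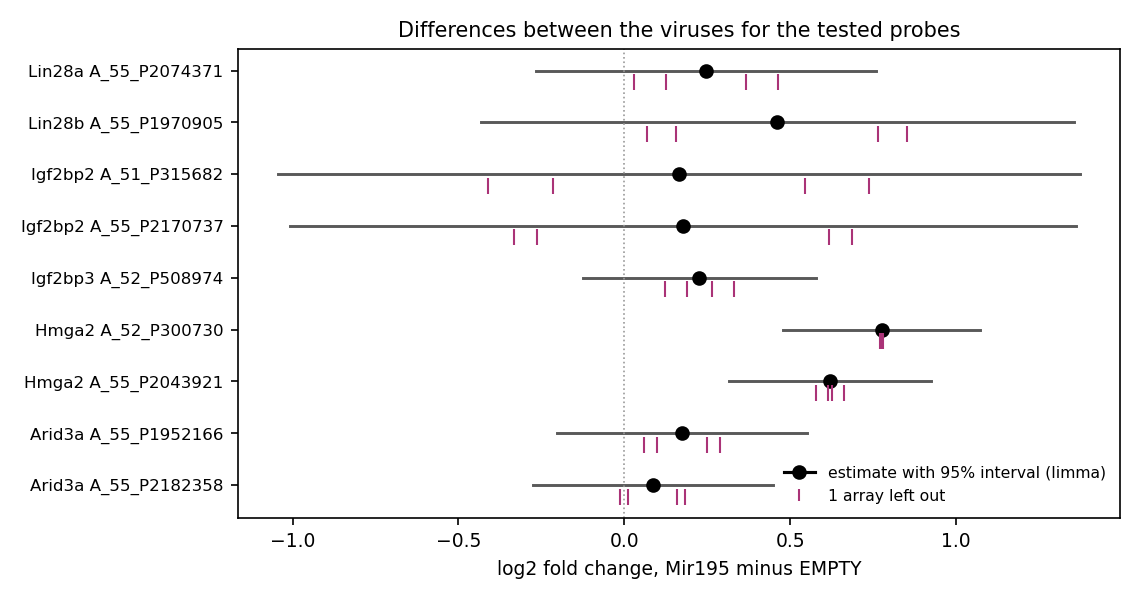
The horizontal axis gives the log2 fold change, *Mir195* minus EMPTY, of the 9 tested probes of the axis, as an estimate with its 95% interval from limma. Vertical ticks below each estimate are the values with 1 array left out. The intervals of the *Hmga2* probes, 0.48 to 1.07 and 0.32 to 0.92, lie above 0, and those of the other 7 probes include it.

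Other genes known to be repressed by let-7 lay around 0. Of 22 such genes, all on the array, 19 were well above background on all 4 arrays and were tested, and *Trim71*, *Nr6a1* and *Acvr1c* were so on none. Their median log2 fold change was 0.01, as for all tested probes, 11 were higher and 8 lower with *Mir195*, and 0 were called. *Igdcc3*, a cell surface gene and a classic let-7 target, was at -4.31 and -4.16 with EMPTY and at -3.91 and -3.85 with *Mir195*, a log2 fold change of 0.36 with an adjusted p of 0.568 from limma. *Insr*, the insulin receptor, had 0.25, *Igf1r*, the IGF1 receptor, -0.17, and *Ccnd2*, a D-type cyclin, -0.27. Of 14 genes of let-7 processing and decay, among them *Zcchc11* and *Zcchc6* (the uridylyl transferases that act with LIN28) and *Dis3l2* (the nuclease that degrades the tailed precursor), all 14 were well above background on all 4 arrays. Their log2 fold changes were between -0.24 for *Khsrp* and 0.12 for *Msi1*, with a median of 0.00 and 0 calls. The groups overlapped for all 14, where 23.4% of all tested probes had *Mir195* higher without overlap and 14.4% lower.

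Among 12 imprinted and fetal growth genes, 8 were tested, with a median log2 fold change of -0.37 and 0 calls, and *Peg3*, *Mest* and *Sox17* were well above background on no array. *Igf2*, the fetal growth factor whose mRNA gave the *Igf2bp* family its name, was at -2.01 and -2.15 with EMPTY and at -3.25 and -4.93 with *Mir195*. Both *Mir195* arrays were the lower ones (log2 fold change -2.01, SE 0.56, limma adjusted p 0.530). *H19*, the imprinted noncoding RNA next to *Igf2*, was at 2.11 and 2.68 with EMPTY and at 1.96 and 1.03 with *Mir195*, with a log2 fold change of -0.90. *Dlk1*, an imprinted membrane protein, was at 0.96 and 1.89 with EMPTY and at 1.64 and -0.49 with *Mir195*, where the groups overlapped, and *Grb10* had a log2 fold change of -0.52. Without *Mir195* replicate 1, *Igf2* (-2.85, adjusted p = 0.000517 from limma), *H19* (-1.37, 0.0431) and *Dlk1* (-1.92, 0.0431) passed the threshold. They are called only when *Mir195* replicate 2 stands alone for its virus.

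Genes of fetal-type and B-1 lymphoid cells lay on both sides of 0. Of 7, 6 were tested with 0 calls, log2 fold changes of -0.82 to 0.31 and a median of -0.19. *Zbtb32*, a transcription factor of B-1 cells, was at -3.57 and -3.83 with EMPTY and at -4.58 and -4.46 with *Mir195*, which differ by -0.82 on the log2 scale (SE 0.15, limma adjusted p 0.530). *Zbtb16*, a transcription factor of innate-like lymphocytes, had -0.41 and *Il5ra*, the interleukin 5 receptor, -0.32, while *Cd5*, a surface marker of B-1a cells and T cells, had 0.31. *Dntt*, which adds bases at V(D)J junctions and is scarce in fetal progenitors, was at 0.03 and 0.06 with EMPTY and at -0.77 and -0.23 with *Mir195*, a log2 fold change of -0.54 with an adjusted p of 0.605 from limma.

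**Figure D4:**
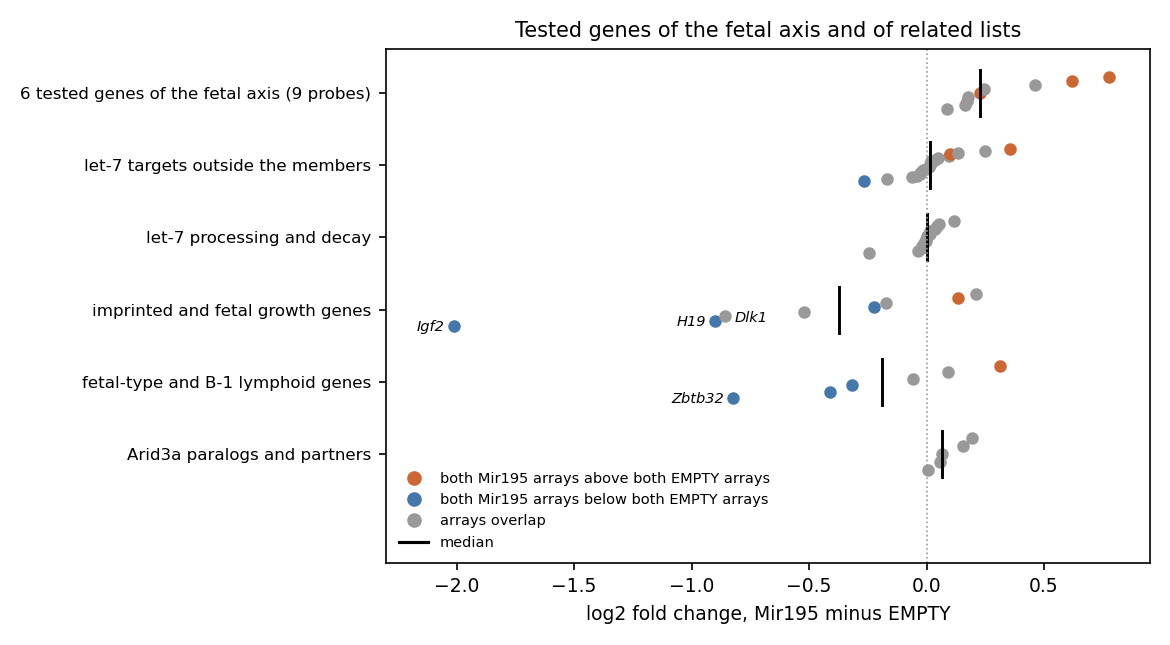
Each point is 1 tested probe (top line) or 1 tested gene of a list, placed by its log2 fold change, *Mir195* minus EMPTY, and black bars are medians. In orange points *Mir195* exceeds EMPTY on every array, in blue points it lies below, and grey points overlap. The probes of the axis lie above 0 with a median of 0.23. With scaling by the median 1 *Arid3a* probe turned sign, and with 1 array left out that probe and both *Igf2bp2* probes did. The let-7 targets have a median of 0.01, and *Igf2* is the lowest point at -2.01.

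The labelled cell type was checked against markers. Of 16 genes of the B lineage, 15 are on the array and 13 were well above background on all 4 arrays, among them *Ptprc*, *Il7r*, *Flt3* and *Kit*. The 14 tested had 0 calls and a median log2 fold change of 0.12, with 0.52 for *Rag1* and 0.32 for *Rag2*, the recombinase genes, and -0.58 for *Cd24a*. *Cd79a* was well above background on the 2 EMPTY arrays alone, but its values lay close together and near background. They were -6.18 and -6.14 with EMPTY and -6.35 and -6.71 with *Mir195*, a log2 fold change of -0.37. *Cd79b*, the partner of *Cd79a* in the B cell receptor, had a log2 fold change of 1.18, and of 1.56 without *Mir195* replicate 1. Of 10 hepatoblast genes, *Afp*, *Alb*, *Apoa1*, *Ttr* and *Fgb* were well above background on no array, while *Apoa2*, *Trf*, *Ahsg* and *Krt18* were so on all 4. These 4 were tested with 0 calls and log2 fold changes of -0.02, -0.36, -1.02 and 0.10, and the summed signal of the list was 1.83 to 2.11 times the 75th percentile. Of 11 erythroid genes, 6 were well above background on all 4 arrays, *Klf1* and *Alas2* were so on none, the 7 tested genes had 0 calls, and the sum was 8.55 to 10.3. *Epor*, the erythropoietin receptor, was at -7.93 on *Mir195* replicate 2 and between -3.35 and -3.25 on the other arrays.

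The genes whose pattern over the 4 arrays was most like that of a member were found by the root mean square distance of log2 values, each centred on its own mean, among 16161 named genes at most. For *Hmga2* they were *Zfp697* (0.02), *Runx2* (0.04) and *Mrgpra2b* (0.04), and 14 genes lay within 0.1. For *Lin28b*, *Tmem238* (0.08) was the 1 gene within 0.1, followed by *Adamts17* and *Cacna1i* (0.12 each). For *Igf2bp2*, 5 genes lay within 0.1, led by *Phlda1* (0.07), *Lingo4* (0.08) and *Pid1* (0.08). For *Lin28a*, *Igf2bp3* and *Arid3a*, whose signals varied less, 790, 2305 and 2642 genes lay within 0.1. With 4 arrays many genes share a pattern, and nothing is read from these names.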

How the data were processed

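RNA from *Ebf1*-/- FL HPCs with the EMPTY or *Mir195* virus was measured on 4 Agilent arrays, 2 per virus, with about 100 ng RNA labelled. Groups are from the sample titles. The authors deposited, per spot, the intensity after background subtraction by Agilent Feature Extraction (11.5.1.1 in the submitters' processing notes), and a table of log2 values scaled by the 75th percentile. From the intensity, log2 values were averaged per probe and the 75th percentile of each array over all 39429 probes was subtracted. Symbols came from accessions (GRCm38.p6) for 26055 probes and otherwise from the array. A probe was well above background where most of its spots carried the scanner's flag. The comparison took the 23722 probes so on both arrays of at least 1 virus, without outlier spots.

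The probes were tested, two-sided, with limma 3.58.1 (lmFit, eBayes; R 4.3.3), with Benjamini-Hochberg adjustment over all tested probes. The code was tested on simulated data. All arrays share 1 slide, EMPTY in the first positions and *Mir195* in the last, so that virus and position cannot be told apart. The 75th percentile lay at a signal of 902 to 1127, 23678 to 24700 probes per array were well above background and 0 spots were saturated. The number of arrays limits the precision.

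The members and lists were chosen with earlier results of these data known. Named are all probes of the 7 genes, and from each list the genes above background on no array and up to 4 with the largest absolute log2 fold change among those above it on all 4. For each list gene the probe with the highest mean signal was used, taken among its tested probes where it had any. Genes named beyond this rule were chosen after their values were seen: *Ptprc*, *Il7r*, *Flt3*, *Kit*, *Cd79a*, *Epor*, *Dntt*, *Zcchc11*, *Zcchc6* and *Dis3l2*. Alternatives were normexp (offset 50), quantile normalization, median scaling, the percentile over detected probes, the authors' table, looser and stricter filters, eBayes with trend, a replicate block, each array left out, and the methods' t-test. Protein sequences were not used here. Some list genes are not reported here.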

Additional observations from a re-analysis of the deposited data

How the results depend on the processing

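0 of the 9 probes of the axis was called under any of the 15 alternatives. Over all tested probes there were 0 calls, beside 3 with median scaling, 5 with the replicate block and 0 to 900 with 1 array left out; 900 came without *Mir195* replicate 1 and 3 without *Mir195* replicate 2. List probes had 0 calls, or 0 to 7 with 1 array left out, all 7 without *Mir195* replicate 1. The signs that turned were those of *Arid3a* A_55_P2182358 (-0.012 with median scaling and -0.012 to 0.18 with 1 array left out, lowest without *Mir195* replicate 1) and of the *Igf2bp2* probes A_51_P315682 (-0.41 to 0.74 with 1 array left out, and -0.22 without EMPTY replicate 2) and A_55_P2170737 (-0.33 to 0.69, and -0.26 without *Mir195* replicate 2); their cause was not tested. Median scaling moved the median log2 fold change of all probes from 0.01 to -0.08. Deviations of same-numbered arrays had r = -0.10 over probes, so the numbers were not taken as pairing; the replicate block left 0 probes of the axis called, as did a crossed pairing added after seeing the data, which gave 0 calls over all probes. With 6 of 7 genes above background, the detection rules and each array left out gave the same count, and the printed names alone gave 5.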
